A study of Homo sapiens with 6 samples.

Results

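The matrix metalloproteinases described here are 10 genes, MMP1, MMP2, MMP3, MMP7, MMP9, MMP10, MMP13, MMP14, MMP15 and MMP28, chosen by gene symbol from the 19775 genes named on the array. They were measured by 20 probe sets in SAS cells, a line established from a human squamous carcinoma of the mouth. Cells received either a control siRNA (siCtrl) or an siRNA against CYLD (siCYLD), a deubiquitinase that restrains NF-κB, and grew for 2 days. They were then kept without serum for 48 h in DMSO or in an inhibitor of the type I TGF-β receptor ALK5. Of the 6 Affymetrix arrays, 2 were siCtrl with DMSO, 2 were siCYLD with DMSO, 1 was siCtrl with inhibitor and 1 was siCYLD with inhibitor. The labels name neither the inhibitor compound nor its dose, and they describe no other CYLD siRNA and no rescue, so effects of the siRNA on other transcripts cannot be told apart from CYLD loss. Groups followed the array titles. For 2 arrays the labels conflict: siCYLD replicate 1 has a source name of the control siRNA, and siCtrl replicate 2 has one of the CYLD siRNA.

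Matrix metalloproteinases are zinc-dependent endopeptidases that cleave collagens, laminins, fibronectin and many surface and secreted proteins. Most are secreted as inactive proenzymes, which plasmin, other metalloproteinases or furin-like convertases activate, and the TIMP proteins inhibit them. In squamous carcinomas the collagenases, stromelysins, gelatinases and the membrane-anchored MMP14 are well known at invasive edges, and both TGF-β and AP-1 or NF-κB signalling are known to regulate their genes.

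Values are MAS5 signals, a linear brightness per probe set and array that the authors scaled to 1 common mean per array, 500.1 after trimming 2% at each end. Levels were compared between arrays for the same probe set and not between genes. Differences are in log2(signal + 16.06), given with the standard error (SE) of the limma fit, and they understate changes of probe sets near the floor. A probe set entered the tests if the mean of any group exceeded the median of all values, a signal of 79.33, and the brightest such probe set stood for its gene. Of the 10 genes, 8 had such a probe set and 2, MMP3 and MMP13, did not. MMP1 and MMP10 passed only through arrays of siCYLD cells, and MMP7 only through arrays of siCtrl cells, so a difference was built into their selection. A gene was called at a Benjamini-Hochberg adjusted p below 0.05 over 12935 genes. No label says whether duplicates came from separate cultures, so p-values measure the spread between these arrays only, which may be technical. In RNA of whole cultures, fewer cells making a transcript and less of it per cell cannot be told apart.

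CYLD signal followed the titles. At the probe set 221903_s_at it was 485 and 549.9 in siCtrl and 77.2 and 125 in siCYLD, and 421 and 71.1 in the inhibitor arrays of the same order. The probe set that represented CYLD fell by 0.80 ± 0.18 (adjusted p = 0.0065), a call lost without siCtrl replicate 2 (-0.665, adjusted p = 0.0584). Among squamous epithelial markers, EGFR, EPCAM, DSG3 and KRT5 were above the filter level on all 6 arrays, whereas KRT14 ran from 62.3 to 148. Some of these markers moved with the groups: KRT5 rose with the inhibitor in siCtrl cells (3.41 ± 0.14, adjusted p = 1.66e-08) and in siCYLD cells (2.56 ± 0.14, adjusted p = 1.66e-07). DSG3 fell with the knockdown (-0.64 ± 0.12, adjusted p = 0.00224) and with the inhibitor in siCYLD cells (-0.67 ± 0.15, adjusted p = 0.00667). Of 15 fibroblast, leukocyte and endothelial markers on the array, 6 passed the filter, none above a signal of 307. Their summed signals ran from 432 to 532 for 6 fibroblast genes, from 151 to 318 for 5 leukocyte genes and from 238 to 389 for 4 endothelial genes. The endothelial sum was highest on the inhibitor arrays (388 and 389) with VWF (169 on both, 25 to 71.4 elsewhere), and the leukocyte sum was lowest there (175 and 151). Across both siRNAs the inhibitor raised VWF (1.54 ± 0.38, adjusted p = 0.0165) and lowered CSF1R (-0.97 ± 0.24, adjusted p = 0.0182). VWF passed the filter only through the inhibitor arrays and CSF1R only through the DMSO arrays, so a difference was built into their selection. The part of these markers in the inhibitor and knockdown results was not tested. The ACTB 3'/5' ratio, a measure of RNA integrity, was 3.21 to 3.67 in the siCtrl arrays and 2.26 to 2.48 in the siCYLD arrays. The GAPDH 3'/5' ratio overlapped between the siRNAs, at 1.79 to 2.14 in the siCtrl arrays and 1.8 to 1.97 in the siCYLD arrays. The part of RNA integrity in the results below was not tested.

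With the CYLD siRNA, 6 of the 10 metalloproteinase genes rose and 0 fell (limma). They were the collagenase gene MMP1, the stromelysin gene MMP10, the gelatinase genes MMP9 and MMP2, and the membrane-type genes MMP14 and MMP15. Among all genes tested, 9.49% were called higher and 11.8% lower. MMP7 and MMP28 were tested and not called, and at unadjusted p under 0.05 there were the same 6 of 8. With no filter, all 10 genes were tested and 6 were again called, beside 9.56% of 19775 genes called in either direction. The median log2 difference of the 8 tested was 0.82, against -0.04 over all genes. This median is a description only. MMP1 and MMP10 passed the filter only through siCYLD arrays and MMP7 only through siCtrl arrays. The genes were also chosen with earlier results of these data known. The inhibitor changed this picture gene by gene: it raised MMP1 and MMP10 further in siCYLD cells and took MMP9 back to near its control level. At the brightest probe sets of MMP2 and MMP14, signals with inhibitor were near-equal in the 2 siRNAs.

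**Figure D1:**
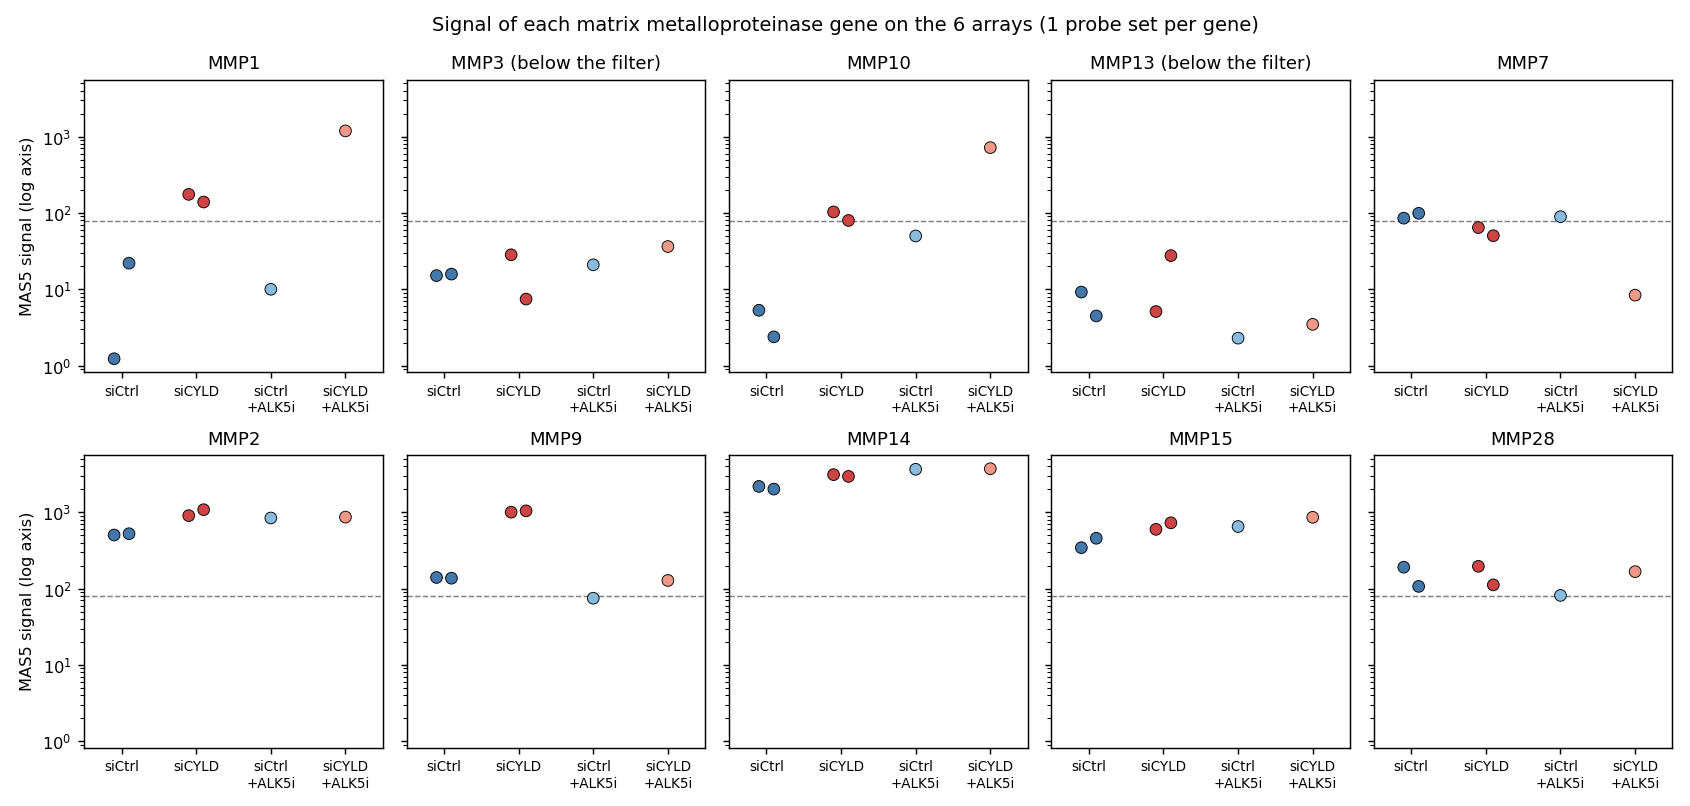
MAS5 signal (log axis) of 1 probe set per gene on each of the 6 arrays, by group; each point is 1 array and the dashed line marks the filter at 79.33. MMP1 and MMP10 are highest in the siCYLD array with inhibitor (1187 and 717), MMP9 is highest in the 2 siCYLD arrays without it (1004 and 1044), and MMP3 and MMP13 lie below the line on every array.

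MMP1 encodes the interstitial collagenase, which cleaves fibrillar collagen. Its probe set 204475_at read 1.23 and 22 in siCtrl against 175 and 139 in siCYLD without inhibitor. With inhibitor it read 10 in siCtrl and 1187 in siCYLD. MMP1 was thus near the floor on all 3 siCtrl arrays and above the filter on all 3 siCYLD arrays, with the inhibitor array the highest. The knockdown difference was 2.75 ± 0.41 (2 against 2 arrays, adjusted p = 0.000339). In siCYLD cells MMP1 rose by a further 2.81 ± 0.50 with the inhibitor (1 against 2 arrays, adjusted p = 0.00153), and in siCtrl cells the inhibitor difference was 0.03 ± 0.50 (adjusted p = 0.983). The test of the difference between these inhibitor responses, the interaction, gave 2.78 ± 0.71 and was not called (adjusted p = 0.0778). It was called with an offset of 64 (2.52, adjusted p = 0.00345) and without siCtrl replicate 1 (3.35, adjusted p = 0.00255), siCYLD replicate 1 (2.93, adjusted p = 0.013) or siCYLD replicate 2 (2.63, adjusted p = 0.0377). With an offset of 1 the further rise in siCYLD cells lost its call (2.92, adjusted p = 0.0756).

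MMP10 encodes stromelysin-2, which cleaves proteoglycans, laminin and fibronectin and can activate procollagenases. Its probe set 205680_at read 5.31 and 2.38 in siCtrl against 103 and 79.7 in siCYLD, and with inhibitor 49.9 in siCtrl and 717 in siCYLD. Unlike MMP1, MMP10 was also higher with the inhibitor in siCtrl cells, although that array stayed under the filter level. The knockdown difference was 2.43 ± 0.39 (adjusted p = 0.00059). The inhibitor raised MMP10 by 1.73 ± 0.47 in siCtrl cells (adjusted p = 0.037) and by 2.78 ± 0.47 in siCYLD cells (adjusted p = 0.00111), with an interaction of 1.05 ± 0.67 that was not called (adjusted p = 0.528). The siCtrl difference lost its call with an offset of 64 (0.75, adjusted p = 0.1), with no filter (adjusted p = 0.085) and without the intensity trend (adjusted p = 0.0594). In the inhibitor pair, 1 array each and without a test, siCYLD exceeded siCtrl by 3.47 for MMP10 and by 5.53 for MMP1. For MMP10 the order of the siRNA differences with and without inhibitor turned with the offset. With an offset of 1 it was 3.82 with inhibitor and 4.31 without.

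MMP1 and MMP10 are next to each other in a row of 9 metalloproteinase genes on chromosome 11. By RefSeq the order is MMP7, MMP20, MMP27, MMP8, MMP10, MMP1, MMP3, MMP12 and MMP13. Among the neighbours, MMP3, the other stromelysin gene, read 15.1 and 15.8 in siCtrl, 28.3 and 7.44 in siCYLD, and 20.9 and 36.3 with inhibitor in siCtrl and siCYLD. MMP13, which encodes a further collagenase, read 9.19 and 4.47 in siCtrl, 5.11 and 27.6 in siCYLD, and 2.29 and 3.47 with inhibitor. Both stayed below the filter on all 6 arrays, and for both the siCtrl and siCYLD duplicates overlapped. In the fit with no filter their knockdown differences were 0.04 ± 0.41 for MMP3 (adjusted p = 0.976) and 0.42 ± 0.42 for MMP13 (adjusted p = 0.634). MMP12 also stayed below the filter, at 15.2 and 10.4 in siCtrl, 22.8 and 41.8 in siCYLD, and 26 and 31.2 with inhibitor in siCtrl and siCYLD. Its siCtrl duplicates were the lowest of the 6 values, with an untested knockdown difference of 0.72. The probe sets of MMP8, MMP20 and MMP27 were below the filter as well, and no difference between neighbouring genes was tested.

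MMP7, at the far end of that row, encodes matrilysin, a small secreted protease of epithelial cells. Its probe set 204259_at read 85.4 and 98.9 in siCtrl, 64.3 and 50.3 in siCYLD, 89.3 in siCtrl with inhibitor and 8.38 in siCYLD with inhibitor. The siCYLD duplicates lay below the siCtrl duplicates, and the siCYLD inhibitor array was the lowest of the 6, near the floor. The knockdown difference of -0.56 ± 0.40 was not called (adjusted p = 0.346). In siCYLD cells MMP7 fell by 1.58 ± 0.49 with the inhibitor (adjusted p = 0.0338), and the interaction of -1.54 ± 0.69 was not called (adjusted p = 0.345). That fall rests on 1 dim array, and its call was lost with an offset of 64 (adjusted p = 0.0797), with no filter (adjusted p = 0.0575) and without siCYLD replicate 1 (-1.44, adjusted p = 0.104).

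RefSeq promoter sequence of GRCh38.p14 was held for 4 of the 10 genes, MMP7, MMP10, MMP14 and MMP15. The 250 bases before the start are shown for MMP10 and MMP7, which lie in the same row and moved in opposite directions in siCYLD cells with the inhibitor, and for MMP14, a membrane-type gene with smaller differences. Capitals mark matches to the AP-1 motif TGANTCA on either strand.
MMP10, chr11:102780629-102780878, minus strand: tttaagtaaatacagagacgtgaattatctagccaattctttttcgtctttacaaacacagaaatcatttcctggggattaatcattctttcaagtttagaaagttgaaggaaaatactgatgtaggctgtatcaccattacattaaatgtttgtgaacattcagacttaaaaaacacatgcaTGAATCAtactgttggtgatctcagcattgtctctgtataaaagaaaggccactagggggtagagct
MMP7, chr11:102530748-102530997, minus strand: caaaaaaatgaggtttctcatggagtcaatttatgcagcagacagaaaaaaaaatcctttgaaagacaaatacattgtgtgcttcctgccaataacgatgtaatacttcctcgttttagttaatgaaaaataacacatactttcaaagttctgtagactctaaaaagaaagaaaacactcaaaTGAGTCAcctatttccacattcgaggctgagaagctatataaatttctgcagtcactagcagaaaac
MMP14, chr14:22836335-22836584, plus strand: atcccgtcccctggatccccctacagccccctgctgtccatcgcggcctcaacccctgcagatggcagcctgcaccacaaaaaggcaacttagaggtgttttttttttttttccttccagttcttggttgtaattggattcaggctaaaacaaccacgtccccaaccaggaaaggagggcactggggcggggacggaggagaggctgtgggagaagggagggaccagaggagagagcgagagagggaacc
In both MMP10 and MMP7 the AP-1 letters lay at positions -67 to -61 from the start, and a TATAAA match followed, at -31 to -26 in MMP10 and at -30 to -25 in MMP7. Of 35116 promoters of this length, 6.57% held TGANTCA and 10.7% held TATAAA. The ETS-type motif AGGAAG, held by 28.7% of promoters, matched in MMP7 at -169 to -164 and -145 to -140 and not in the MMP10 window. The SMAD half-site GTCTG, held by 38% of promoters, matched once in each, at -88 to -84 in MMP10 and at -212 to -208 in MMP7. The NF-κB consensus, held by 5.21% of promoters, had no match in the 4 windows. A match describes letters in these windows and not binding. The AP-1 match read TGAATCA in MMP10 and TGAGTCA in MMP7, so the 2 differed at the N of the motif.

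MMP9 encodes gelatinase B, which degrades basement-membrane collagen and denatured collagen. Its probe set 203936_s_at read 140 and 137 in siCtrl against 1004 and 1044 in siCYLD. With the inhibitor it read 74.9 in siCtrl and 128 in siCYLD, so the siCYLD value lay just under both siCtrl values without inhibitor. MMP9 rose by 2.75 ± 0.18 with the knockdown (adjusted p = 4.74e-07) and fell by 2.85 ± 0.22 with the inhibitor in siCYLD cells (adjusted p = 2.48e-06). In siCtrl cells it fell by 0.76 ± 0.22 (adjusted p = 0.0472), a call lost under 8 of 12 alternatives. The interaction of -2.09 ± 0.31 was called (adjusted p = 0.00486) and was the only one called among the 8 genes (0.982% of all genes were called higher and 0.688% lower). It was lost with no filter (adjusted p = 0.0757) and without the intensity trend (adjusted p = 0.102). In the inhibitor pair siCYLD exceeded siCtrl by 0.66, against 2.75 without inhibitor.

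MMP2 encodes gelatinase A, whose proenzyme is activated at the cell surface by MMP14. The bright probe set of MMP2, 201069_at, read 504 and 524 in siCtrl against 904 and 1081 in siCYLD. With the inhibitor it read 842 in siCtrl and 865 in siCYLD, both between the siCtrl and siCYLD duplicates. MMP2 rose by 0.92 ± 0.13 with the knockdown (adjusted p = 0.00029) and by 0.69 ± 0.16 with the inhibitor in siCtrl cells (adjusted p = 0.0193), while the difference in siCYLD cells was -0.19 ± 0.16 (adjusted p = 0.453). The interaction of -0.88 ± 0.23 was not called (adjusted p = 0.0878), and it was called without siCYLD replicate 1 (-1.01, adjusted p = 0.0121). The pair with inhibitor differed by 0.04 at this probe set, and by 0.94 with the mean of the kept MMP2 probe sets. Another MMP2 probe set that passed the filter, 1566678_at, ran from 14.3 to 111, and its duplicates overlapped between siRNAs. In the inhibitor pair it read 19.5 in siCtrl and 111 in siCYLD. It passed the filter only through that siCYLD inhibitor array, so a difference in this pair was built into its selection. The averaged difference of 0.94 and other averages of the MMP2 probe sets carry this limit. With both probe sets averaged, neither the knockdown difference of 0.53 (adjusted p = 0.186) nor the inhibitor difference in siCtrl cells of 0.05 (adjusted p = 0.942) was called. The latter call was also lost with no filter (adjusted p = 0.0719) and without the intensity trend (adjusted p = 0.134).

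MMP14 encodes the membrane-anchored collagenase that activates proMMP2. Its brightest probe set, 160020_at, read 2182 and 2013 in siCtrl, 3114 and 2949 in siCYLD, and 3658 and 3722 with the inhibitor in siCtrl and siCYLD. Thus every other array lay above the siCtrl duplicates, and both inhibitor arrays lay above the siCYLD duplicates. MMP14 rose by 0.53 ± 0.10 with the knockdown (adjusted p = 0.00231) and by 0.80 ± 0.12 with the inhibitor in siCtrl cells (adjusted p = 0.00168). In siCYLD cells the inhibitor difference was 0.30 ± 0.12 (adjusted p = 0.108), the interaction -0.50 ± 0.18 (adjusted p = 0.202), and the inhibitor pair differed by 0.02. Tested on their own among all 24537 kept probe sets, 202827_s_at (0.52, adjusted p = 0.0233) and 202828_s_at (0.47, adjusted p = 0.0247) also rose with the knockdown, while 217279_x_at did not (-0.20, adjusted p = 0.432). For the inhibitor in siCtrl cells these 3 probe sets were not called (adjusted p of 0.122, 0.0775 and 0.678). With the mean of its probe sets MMP14 lost both calls, in the knockdown (0.33, adjusted p = 0.0736) and with the inhibitor in siCtrl cells (0.49, adjusted p = 0.0692). With no intensity trend it lost both as well (adjusted p of 0.058 and 0.0894).

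MMP15 encodes another membrane-anchored metalloproteinase. Its probe set 203365_s_at read 344 and 457 in siCtrl, 598 and 728 in siCYLD, and 651 and 860.1 with inhibitor in siCtrl and siCYLD. The siCtrl duplicates were the lowest of the 6 arrays and the siCYLD inhibitor array was the highest. MMP15 rose by 0.71 ± 0.16 with the knockdown (adjusted p = 0.00725) and by 0.69 ± 0.20 with the inhibitor in siCtrl cells (adjusted p = 0.0466). With no intensity trend the knockdown was not called (adjusted p = 0.0862), and the inhibitor call was lost under 5 of 12 alternatives, among them without siCtrl replicate 1 (0.495, adjusted p = 0.168). In siCYLD cells the inhibitor difference was 0.37 ± 0.20 (adjusted p = 0.207), and the inhibitor pair differed by 0.39.

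MMP28 encodes epilysin, a metalloproteinase of keratinocytes, and its 5 probe sets differed among themselves. The probe set with the highest mean, 224207_x_at, read 191 and 107 in siCtrl, 196 and 112 in siCYLD, and 81.5 and 167 with inhibitor in siCtrl and siCYLD. The duplicates of each siRNA spanned nearly the same range, and the knockdown difference was 0.04 ± 0.32 (adjusted p = 0.941). The probe set 239272_at instead read 22.3 and 48.5 in siCtrl, 98.8 and 118 in siCYLD, and 166 and 213 with inhibitor. These values did not overlap between any 2 of the 3 kinds of array, siCtrl, siCYLD and inhibitor-treated. This probe set and 239273_s_at passed the filter only through siCYLD or inhibitor arrays, so a difference from siCtrl was built into their selection. Among kept probe sets, 239272_at rose by 1.32 with the knockdown (adjusted p = 0.016) and by 1.87 with the inhibitor in siCtrl cells (adjusted p = 0.0174). The third kept probe set, 239273_s_at, had a knockdown difference of 1.38 that was not called (adjusted p = 0.057). A name ending in _x_at marks probes that may bind several transcripts. For MMP28 the size of the knockdown difference depended on the probe set, and none of the kept ones fell. For the inhibitor in siCtrl cells the direction depended on it, with -0.71 at 224207_x_at against 1.87 at 239272_at and 0.91 at 239273_s_at.

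**Figure D2:**
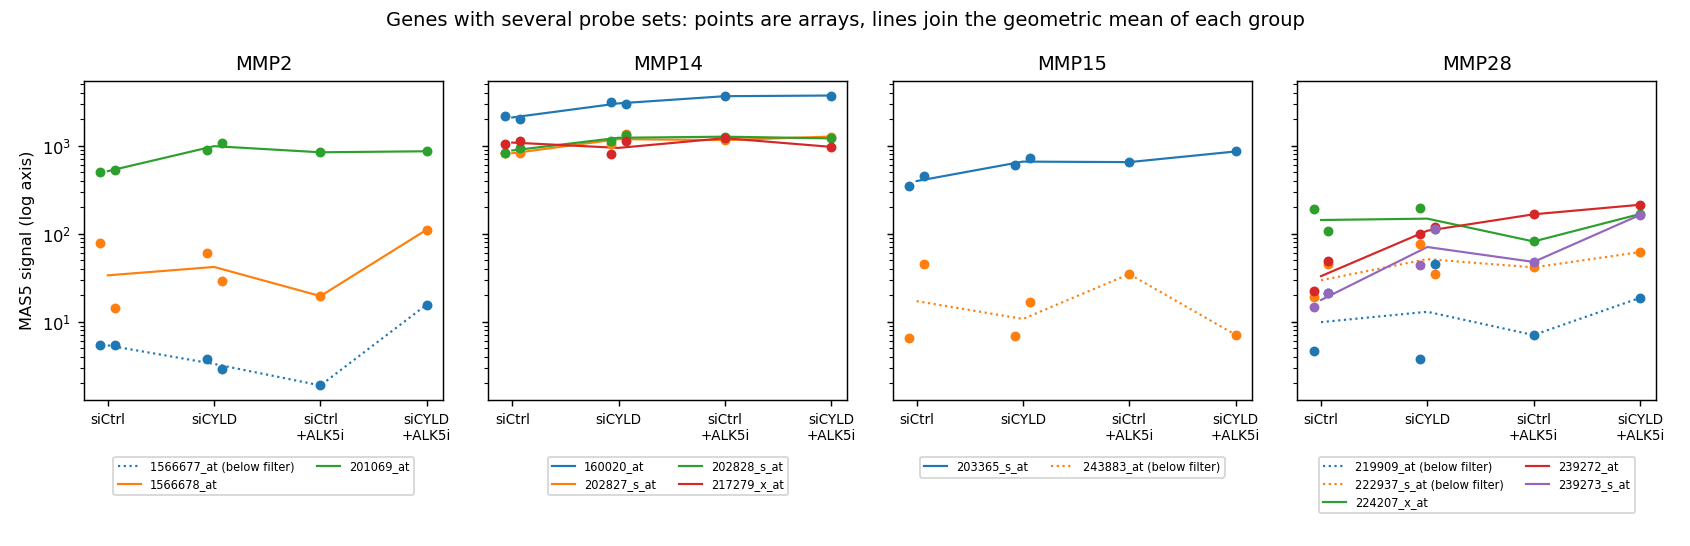
MAS5 signal (log axis) of every probe set of the 4 genes with more than 1, by group; points are arrays, lines join the geometric means of the groups, and dotted lines are probe sets below the filter. For MMP14, 3 of 4 probe sets are higher in siCYLD than in siCtrl without inhibitor, and for MMP28 the probe sets 239272_at and 239273_s_at lie higher in siCYLD where 224207_x_at stays level.

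Across the comparisons, the knockdown and the inhibitor differences share the same DMSO arrays, so their values are set side by side and not correlated. In siCtrl cells the inhibitor raised 4 of the 8 genes (MMP2, MMP10, MMP14 and MMP15) and lowered MMP9, with 5.02% of all genes called higher and 4.34% lower. In siCYLD cells it raised MMP1 and MMP10 and lowered MMP7 and MMP9, with 12.2% of all genes higher and 10.2% lower. Across both siRNAs, in an additive model of siRNA and inhibitor, MMP10 (2.26 ± 0.37), MMP14 (0.55 ± 0.12) and MMP15 (0.53 ± 0.16) rose and MMP9 fell by 1.81 ± 0.35, with adjusted p of 0.00219, 0.0108, 0.0342 and 0.00567 (11.2% of all genes higher, 8.82% lower). In that model MMP1 had 1.42 ± 0.55 and was not called (adjusted p = 0.0947). It was called under 3 of 16 alternatives, without siCtrl replicate 2 (1.86, adjusted p = 0.0294), without the siCtrl inhibitor array (2.81, adjusted p = 0.000695) and when both arrays of conflicting labels were dropped (1.775, adjusted p = 0.0287). MMP10 lost this call when the siCYLD inhibitor array was dropped (1.73, adjusted p = 0.113), which leaves the inhibitor in siCtrl cells alone. MMP15 lost it under 6 of 15 alternatives, and MMP9 without the intensity trend (adjusted p = 0.061). MMP14 lost it under 3 of 16, with the mean of probe sets (0.30, adjusted p = 0.118), with no intensity trend (adjusted p = 0.0709) and without the siCtrl inhibitor array (0.295, adjusted p = 0.11).

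**Figure D3:**
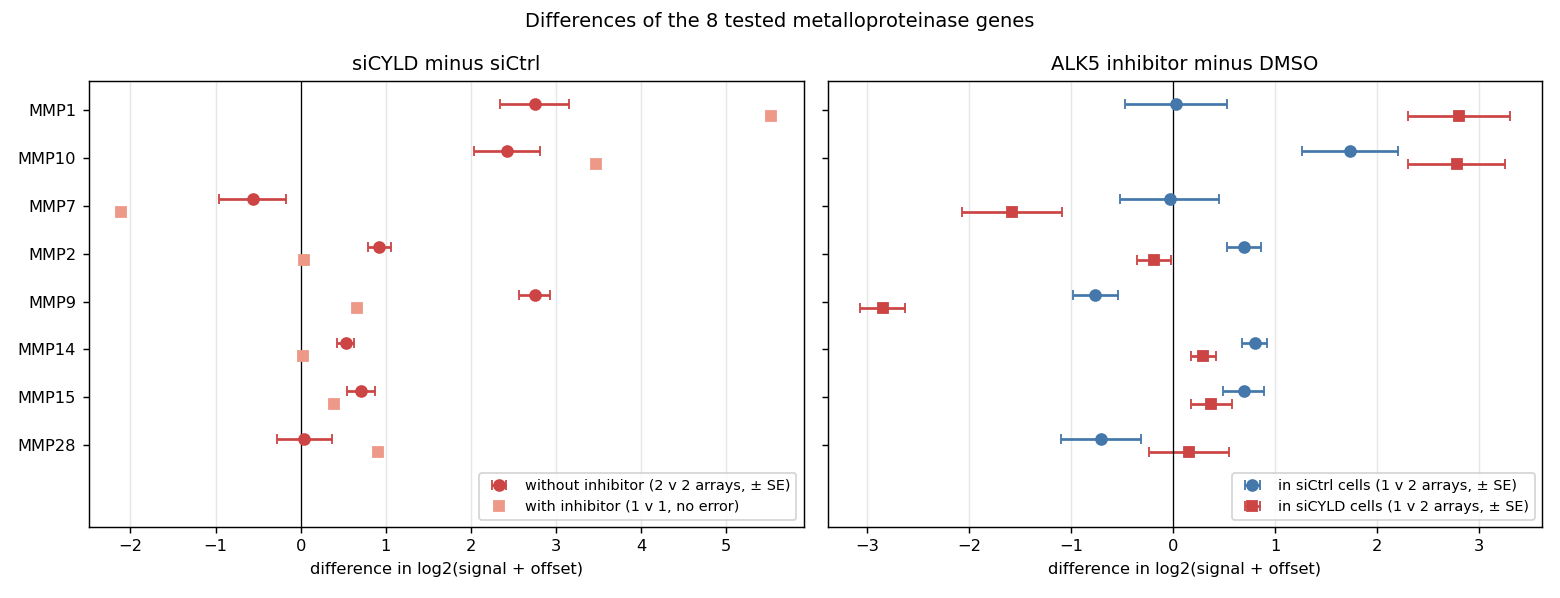
Differences in log2(signal + 16.06) of the 8 tested genes. The left panel gives siCYLD minus siCtrl without inhibitor (circles, ± SE, 2 against 2 arrays) and with it (squares, 1 against 1, no error), and the right panel gives inhibitor minus DMSO in each siRNA (± SE). With inhibitor the siRNA difference is larger for MMP1 (5.53) and smaller for MMP9 (0.66). For MMP10 it is larger (3.47) on this scale but not with an offset of 1 (3.82 against 4.31). At the brightest probe sets of MMP2 and MMP14 it is near 0.

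With the inhibitor present, 3 of the 8 genes differed at least 2-fold between siRNAs, MMP1 and MMP10 higher and MMP7 lower in siCYLD (-2.11), against 6.73% of all genes. These are single arrays with no replicate check, and all 3 genes passed the filter only through arrays of 1 siRNA. With the 65th percentile as the filter, 6 members were left, MMP7 not among them. The count was then 2, against 4.21% of all genes. Without inhibitor, the duplicates of siCtrl and siCYLD did not overlap for 7 of the 8 genes, against 60.9% of all genes, MMP28 being the exception. Without both arrays with conflicting labels, an additive fit of the other 4 arrays kept knockdown calls for 4 genes (MMP1, MMP9, MMP10 and MMP15) and not for MMP2 (0.56, adjusted p = 0.128) and MMP14 (0.23, adjusted p = 0.478). That fit weighs the inhibitor pair more, in which MMP2 and MMP14 hardly differed at their brightest probe sets.

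Of 13 other metalloproteinase genes listed, 12 had a probe set of their own and 4 passed the filter, namely MMP11, MMP17, MMP24 and MMP25. None of the 4 was called in any of the 5 tested comparisons (limma, 0 at unadjusted p under 0.05 in each). Their knockdown differences were 0.16, -0.29, -0.06 and 0.26.

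Genes for metalloproteinase inhibitors moved apart from each other. TIMP3, which binds the matrix and inhibits both secreted and membrane-type enzymes, fell with the knockdown by 1.88 ± 0.11 (adjusted p = 1.69e-07) and rose with the inhibitor by 1.05 ± 0.13 in siCtrl cells (adjusted p = 0.00044) and by 2.93 ± 0.13 in siCYLD cells (adjusted p = 3.3e-08). Its interaction of 1.88 ± 0.19 was called (adjusted p = 0.000254), and in the inhibitor pair its signal was 6495 in siCtrl and 6488 in siCYLD. These values belong to 201150_s_at. Other TIMP3 probe sets were lower in siCYLD in that pair: 6782 and 4103 at 201147_s_at, 4788 and 3458 at 201149_s_at, and 2587 and 1929 at 201148_s_at. Tested among kept probe sets, the interaction was called at 201147_s_at (1.35) and 201149_s_at (1.49) and not at 201148_s_at (0.76, adjusted p = 0.144). TIMP1, the soluble inhibitor that binds proMMP9, rose with the knockdown by 0.56 ± 0.10 (adjusted p = 0.00171) and fell with the inhibitor in siCtrl cells (-0.71 ± 0.13, adjusted p = 0.00401) and in siCYLD cells (-1.17 ± 0.13, adjusted p = 3.66e-05). The knockdown call of TIMP1 was lost under 2 of 17 alternatives, the one without the intensity trend (adjusted p = 0.0587) and the one without both arrays with conflicting labels (0.30, adjusted p = 0.326). TIMP2, which takes part in proMMP2 activation by MMP14, fell by 0.34 ± 0.09 with the knockdown (adjusted p = 0.0136), a call lost under 4 of 17 alternatives, among them without siCYLD replicate 1 (-0.29, adjusted p = 0.108) and without _x_at and _s_at probe sets (-0.15, adjusted p = 0.279). With the inhibitor TIMP2 fell in siCtrl cells (-0.57 ± 0.11, adjusted p = 0.00516) and in siCYLD cells (-0.36 ± 0.11, adjusted p = 0.0276), the latter lost without siCYLD replicate 2 (-0.31, adjusted p = 0.142). Without the intensity trend TIMP1, TIMP2 and TIMP3 lost their inhibitor calls in siCtrl cells (adjusted p of 0.114, 0.136 and 0.0807). TIMP2 then lost its call in siCYLD cells too (adjusted p = 0.164). TIMP4 (0.42 ± 0.33) and the membrane-anchored inhibitor RECK (-0.19 ± 0.14) were not called in the knockdown (adjusted p of 0.41 and 0.372). Thus the knockdown raised 1 and lowered 2 of 5 inhibitor genes, beside 9.49% of all genes higher and 11.8% lower.

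Among genes that activate or bind metalloproteinases, some were called and most were not. Of 15 activating proteases and regulators listed, 13 were on the array and 12 tested, of which 4 rose with the knockdown and 0 fell (6 at unadjusted p under 0.05), against 9.49% and 11.8% of all genes. PLAU, the urokinase that generates plasmin, rose by 1.47 ± 0.09 from 6865 and 6225 to 19054 and 17199.6, and read 12729.7 and 26417 with inhibitor in siCtrl and siCYLD. Its inhibitor differences of 0.96 ± 0.11 in siCtrl cells (adjusted p = 0.000198) and 0.54 ± 0.11 in siCYLD cells (adjusted p = 0.00339) were both called. Both calls were lost without the intensity trend (adjusted p of 0.0814 and 0.0958). The serpin gene SERPINE2, an inhibitor of plasminogen activators, rose by 1.27 ± 0.13, and the urokinase receptor gene PLAUR by 0.68 ± 0.12. Of 10 surface partners, 4 rose and 2 fell, beside the same shares of all genes. CD44, a hyaluronan receptor that docks MMP9 and MMP14, rose by 1.08 ± 0.09, the integrin gene ITGAV rose by 0.84 ± 0.10, and the caveolin gene CAV1 fell by 0.93 ± 0.08. Without both arrays with conflicting labels, ITGAV (0.53, adjusted p = 0.0868) and CAV1 (-0.52, adjusted p = 0.083) lost their calls.

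Transcription factor and substrate genes were counted in the same way. Of 14 AP-1, ETS and RUNX factor genes tested, 6 rose with the knockdown and 0 fell (9.49% and 11.8% of all genes). ETV4, of the PEA3 family, rose by 1.10 ± 0.19 (not called with no intensity trend, adjusted p = 0.0721), ETS1 by 1.05 ± 0.10, and the AP-1 gene FOSL1 by 0.99 ± 0.10. FOSL1 read 2922 and 2739 in siCtrl against 5308 and 5953 in siCYLD, and with inhibitor 3154 in siCtrl and 9986 in siCYLD. FOSL1 rose with the inhibitor in siCYLD cells by 0.83 ± 0.12 (adjusted p = 0.000382), and its interaction of 0.67 ± 0.17 was not called (adjusted p = 0.0778). In that comparison 2 of the 14 rose, FOSL1 and RUNX2 (1.81), and 4 fell, FOS (-1.76), JUNB (-1.24), JUN (-0.49) and JUND (-0.36), against 12.2% of all genes higher and 10.2% lower. Of 10 matrix substrate genes tested, 7 rose and 0 fell, beside the same shares. The fibronectin gene FN1 rose by 6.57 ± 0.13, the anchoring collagen gene COL7A1 by 1.92 ± 0.11 and the tenascin gene TNC by 1.15 ± 0.09. The FN1 value belongs to an _x_at probe set, and without _x_at and _s_at probe sets the difference of FN1 was 0.84 and not called (adjusted p = 0.186). With the inhibitor in siCYLD cells, FN1 (-5.16 ± 0.16, adjusted p = 1.37e-09) and COL7A1 (-2.06 ± 0.14, adjusted p = 9.56e-07) fell.

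**Figure D4:**
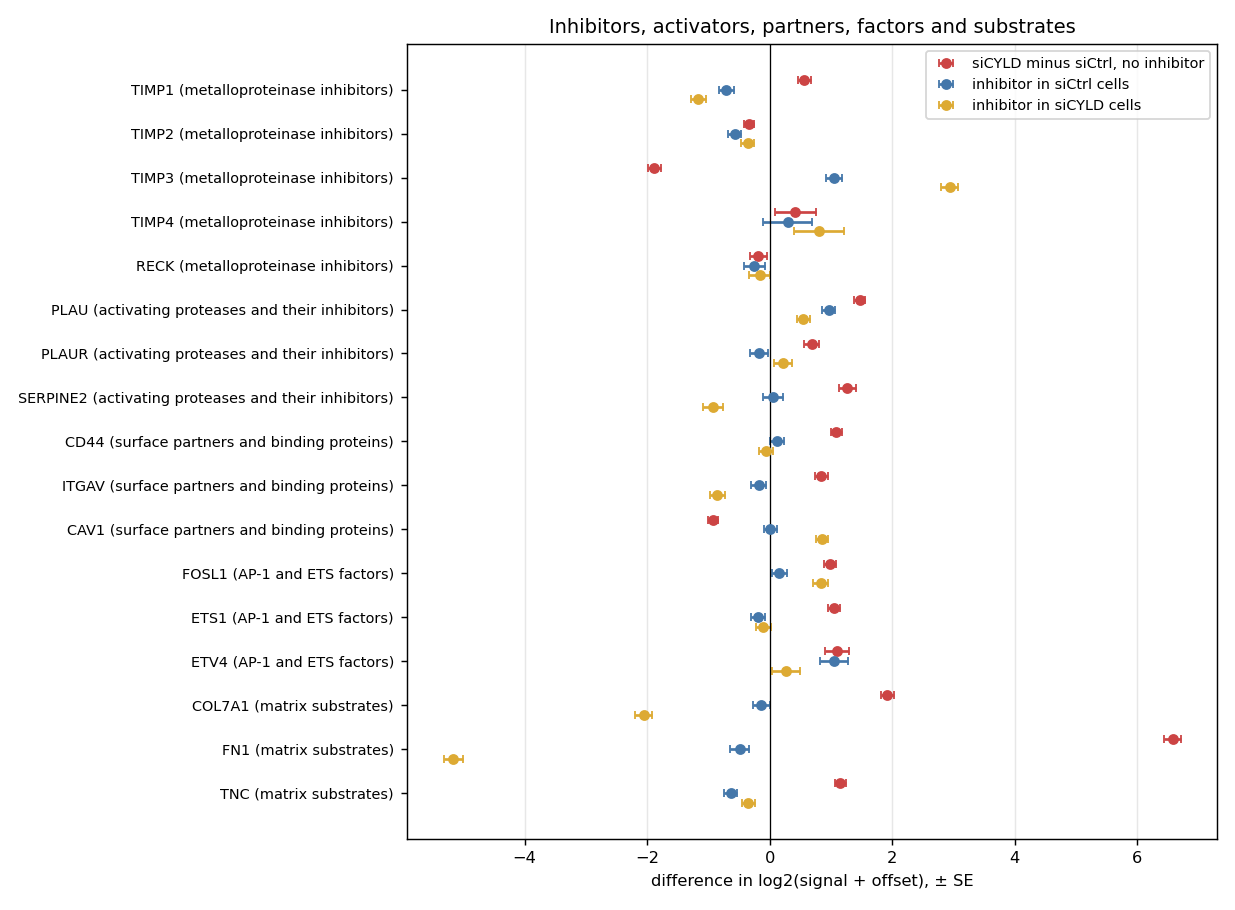
Differences in log2(signal + 16.06) ± SE of the named inhibitor, activator, partner, factor and substrate genes for the knockdown without inhibitor and for the ALK5 inhibitor in each siRNA. TIMP3 lies left of 0 for the knockdown (-1.88) and right of 0 for the inhibitor (1.05 and 2.93), and FN1 and COL7A1 lie far right for the knockdown and far left for the inhibitor in siCYLD cells.

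The genes whose values over the 6 arrays were most like those of MMP1, MMP9 and MMP10 were found by Pearson correlation of log2 values, as a description of 6 arrays in 4 groups. For MMP9 they were PMEPA1 (0.9995), FMNL3 (0.9977), ITGAV (0.9969), CTSB (0.9942) and SGCB (0.9936), all highest in the 2 siCYLD arrays without inhibitor. PMEPA1, which restrains TGF-β signalling, read 417 and 403 in siCtrl, 5234 and 5673 in siCYLD, and 170.1 and 377 with inhibitor. For MMP10 they were NRIP1 (0.9971), LINC00973 (0.9969), C12orf75 (0.9946), PNKD (0.9939) and CBLL1 (0.9932), and for MMP1 they were DRAP1 (0.9936), TAT (0.9889), GGACT (0.9881), HSP90AB1 (0.9872) and RFTN1 (0.985). Those of MMP10 and MMP1 were highest in the siCYLD array with inhibitor. NRIP1, a nuclear receptor corepressor gene, read 1602 and 1653 in siCtrl, 2913 and 2914 in siCYLD, and 2473 and 5723 with inhibitor in siCtrl and siCYLD. The 3 lists shared no gene.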

How the data were processed

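RNA of SAS cells was measured on 6 Affymetrix arrays, from 2 µg total RNA each per the labels' protocols. The deposited values are 1 intensity per probe set and array, made by the authors with MAS5 per the submitters' processing notes, in a version not given in the sources used here. All intensities were on a common trimmed mean and were not rescaled. Of 54675 probe sets, the platform annotation gave 41091 a single gene symbol, 1801 several and 11721 no symbol, beside 62 controls. Only those with a single symbol were used. Entrez identifiers of all 10 members matched RefSeq with unchanged symbols. No coordinates but those of RefSeq promoters are given, since no source used here names the authors' genome build.

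The offset was the 20th percentile of all values. By limma 3.58.1 (R 4.3.3) with an intensity trend and two-sided tests, linear models were fitted to 4 group means (2 residual and 10.9 prior degrees of freedom), or to an additive model for the inhibitor across both siRNAs (3 and 7.98), each lone inhibitor array being assumed to vary as the duplicates do. On simulated data the script was tested with known differences. Array data carry no read depth, and their number limits the precision. The rule for named genes took all members, their inhibitors, FN1, CYLD and up to 3 genes per list, called in the knockdown and with the largest difference, and for MMP1, MMP9 and MMP10 the 5 most like genes. Members and lists were chosen with earlier results of these data known. Alternatives covered the offset, filter, normalization, probe set, moderation, arrays left out and grouping by source name. Sequences were matched with pandas 2.3.3 in Python 3.11.15, and figures drawn with matplotlib 3.10.9.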

Additional observations from a re-analysis of the deposited data

Results flagged for a closer look

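The inhibitor difference depended on the siRNA, by limma's test of the interaction, for 5 of the members and list genes picked by the rule for named genes. The genes most like MMP1, MMP9 and MMP10 were not counted here. Over all genes the interaction was called for 1.67%. COL7A1 and CAV1 were picked by their knockdown difference, and the interaction subtracts that difference on the same DMSO arrays. The count of 5 therefore cannot be compared with this share. For MMP9 the inhibitor difference in siCYLD cells minus that in siCtrl cells was -2.09 ± 0.31 (adjusted p = 0.00486), and for FN1 it was -4.67 ± 0.23 (adjusted p = 4.01e-07). For COL7A1 it was -1.92 ± 0.19 (adjusted p = 0.000254), for TIMP3 1.88 ± 0.19 (adjusted p = 0.000254) and for CAV1 0.84 ± 0.14 (adjusted p = 0.00757). Each rests on 1 inhibitor array per siRNA, and without the intensity trend none of the 5 was called (adjusted p from 0.0922 to 0.254). With no filter the calls of MMP9 (adjusted p = 0.0757) and CAV1 (adjusted p = 0.108) were lost. Without _x_at and _s_at probe sets the FN1 value was -1.03 and not called (adjusted p = 0.595). Among list genes reported outside that rule, the interaction was also called for FOS (1.498 ± 0.236, adjusted p = 0.00585) and KRT5 (-0.843 ± 0.191, adjusted p = 0.0463).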

How the results depend on the processing

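The knockdown count of 6 members was 4 to 7 under the alternatives that kept the titled groups, and 6 to 6 with 1 DMSO array left out. The 7 came from testing every kept probe set, which adds MMP28, and this fit, like the values with inhibitor under other settings, was chosen after seeing the data. MMP28 was also called higher with the mean of kept probe sets (0.913, adjusted p = 0.0471) and without _x_at and _s_at probe sets (1.317, adjusted p = 0.0145). Both settings draw on MMP28 probe sets that passed the filter only through siCYLD or inhibitor arrays. Grouped by source name, which puts 1 titled siCtrl and 1 titled siCYLD array in each DMSO group, 0 members and 0 of all genes were called (limma, 1 member at unadjusted p under 0.05). The 4 DMSO arrays with a replicate block gave 6 members and 3693 genes, against 2802 genes for the same arrays with no block, and the block changed no member's call. Deviations of same-numbered arrays correlated at 0.0447 over 12935 genes, so the numbers were not taken as pairs.

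For the inhibitor across both siRNAs the count of 4 became 1 without the intensity trend, and 3 to 5 with 1 array left out. In siCtrl cells the count of 5 became 3 with an offset of 64, 1 with no filter, 2 with the mean of probe sets, 0 without the intensity trend (5 at unadjusted p under 0.05), and 3 to 4 with 1 array left out. In siCYLD cells it was 3 to 4 with 1 array left out. For the interaction the count of 1 became 2 with an offset of 64, 0 with no filter, 0 without the trend, 0 without _x_at and _s_at probe sets, and 1 to 3 with 1 array left out; at unadjusted p under 0.05 these 3 counts were 5, 5 and 4. MMP9 and MMP15 have only _s_at probe sets above the filter and drop out there. Elsewhere the cause was not tested. Over all genes, the knockdown called 2757, against 1219 without the trend and 1052 without both arrays with conflicting labels. The inhibitor across both siRNAs called 2586 genes, against 1087 without the trend, 1325 without both arrays, 1668 without siCtrl replicate 1, 1547 without siCYLD replicate 1, 1706 without siCYLD replicate 2 and 1232 without the siCYLD inhibitor array. In siCtrl cells 1211 genes became 478 with no filter and 35 without the trend, and in siCYLD cells 2900 became 1819 and 1055. The interaction called 216 genes, against 33 with no filter, 95 with the mean of probe sets, 134 without _x_at and _s_at probe sets, 0 without the trend, and up to 455 with 1 array left out.

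Differences that changed sign were of genes not called, MMP10 and MMP2 among them in those comparisons. With 1 array left out, MMP28 ranged from -0.33 to 0.42 in the knockdown, from -0.71 to 0.16 for the inhibitor across both siRNAs and from -0.21 to 0.52 in siCYLD cells, and MMP2 had -0.19 across both siRNAs without the siCtrl inhibitor array. In siCtrl cells with 1 array left out, MMP1 ranged from -0.54 to 0.59 and MMP7 from -0.126 to 0.0546. There MMP1 had -0.0165 with an offset of 64, and MMP7 had 0.0528 with quantile normalization. With the mean of probe sets, MMP28 had 0.69 across both siRNAs, 0.69 in siCtrl cells and -0.0018 for the interaction, and MMP2 had 0.46 in siCYLD cells and 0.41 for the interaction. Without _x_at and _s_at probe sets MMP28 had 1.38, 1.87 and -0.99 in the same 3 comparisons, of which the former pair was called (adjusted p of 0.0148 and 0.014). MMP10 had an interaction of -0.49 with an offset of 1. Over the gene-level alternatives that were tested and kept the titled groups, 482 member values kept direction and call, 44 lost and 12 gained a call, and 18 changed sign. These numbers, and the counts of alternatives given above for single genes, leave out the grouping by source name. With that grouping 0 genes were called in the knockdown.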
